A study of Saccharomyces cerevisiae with 24 samples.

Results

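ULI1 (systematic name YFR026C) is a small yeast gene whose transcript is known to be induced by the unfolded protein response, and whose protein has no assigned biochemical function. It was followed here as 1 gene, found by its systematic name among the 6576 names on the arrays. It was chosen by its measured levels: earlier results of these data placed it first among all genes in how far its response to stress differed between the forms of Ire1. Its levels under DTT and in cells labelled Δopi3, and the differences between the strains there, are therefore given as a description, with no test. Adjusted p-values are given for ULI1 only in the 3 comparisons that set arrays with choline against untreated arrays or against each other. The response to stress was measured from the untreated arrays, so the comparisons with untreated arrays are not fully free of the choice.

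The unfolded protein response is the pathway by which yeast adjusts gene expression to the state of the endoplasmic reticulum (ER). Ire1 spans the ER membrane: its lumenal domain faces the inside of the ER, where unfolded proteins are sensed, and its cytosolic part cuts HAC1 messenger RNA. The cut RNA is rejoined by the tRNA ligase Trl1 and translated into the transcription factor Hac1, which activates genes of ER protein folding, quality control and transport.

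The study placed 24 one-colour Agilent arrays in 8 groups of 3, all of strain W303, mating type a, and all with the chromosomal IRE1 gene deleted. In 4 groups this deletion was covered by IRE1 (IRE1 cells below), and in the other 4 by ire1ΔLD, a form named for the missing lumenal domain (ΔLD cells below). Each form was examined in untreated cells, in cells given 2 mM DTT for 1 hour, in cells that also carried Δopi3, and in Δopi3 cells grown overnight with 1 mM choline. DTT, a reducing agent, breaks the disulfide bonds that many ER proteins need to fold; the series calls it protein stress. OPI3 encodes a methyltransferase of phosphatidylcholine synthesis, its loss is called lipid stress, and choline supplies another route to that lipid. The labels do not say on what construct the Ire1 forms were carried, and they do not name separate cultures for the replicates, so p-values measure the spread between these samples, which may be technical.

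Each slide held 1 array of every group, at the same position on all 3 slides, so group and position on the slide cannot be told apart. All 6 fixed marker genes of mating type a were above background on 24 of 24 arrays, with a summed group level of 2.08 to 3.39. Of the 4 markers of mating type alpha, STE3 and SAG1 were also above background on all 24 arrays, MF(ALPHA)1 on 12 and MF(ALPHA)2 on 4, with a summed group level of −2.95 to −1.73. The OPI3 probe went against the label on 5 of the 12 arrays labelled Δopi3. It was at 0.752% and 31.0% of its level in untreated cells in replicates 2 and 3 of IRE1 cells, at 1.53% and 23.3% in replicates 2 and 3 of ΔLD cells, and at 11.4% in replicate 3 of IRE1 cells with choline. Below, the ULI1 changes with the label and their strain difference are given with and without these arrays. Choline values, counts over gene lists and calls on other genes use all arrays unless stated.

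Levels are log2 signals relative to the 75th percentile of the same array, averaged over the spots of the probe. One probe reported ULI1, with 9 spots on every array. On each of the 24 arrays all 9 spots passed the scanner software's test for signal over background, none was saturated, and 8 or 9 were used after outlier spots were removed. The SD between spots of 1 array was 0.0315 to 0.221. The processed signal ran from 112 units on an untreated array to 12298 units on an array of IRE1 cells with DTT.

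In untreated IRE1 cells the ULI1 level was −6.12, −6.08 and −5.95 in replicates 1, 2 and 3, with a mean of −6.05 ± 0.09 (SD, n = 3). With DTT the 3 arrays of IRE1 cells stood at −0.44, −0.07 and −0.17, a mean of −0.23 ± 0.19. All 3 arrays with DTT were far above all 3 without it, and the lowest spot with DTT was above the highest spot of any untreated array. In this comparison 74.3% of all genes had groups without overlap. RNA was taken from whole cultures, so more cells with the transcript and more transcript per cell cannot be told apart. In IRE1 cells labelled Δopi3 the level was −0.31, −0.05 and −0.57, a mean of −0.31 ± 0.26, and these arrays overlapped those with DTT. Replicate 3, the lowest of them, was also the array with the largest remaining OPI3 signal. Replicate 2, with OPI3 at 0.752%, was the highest, above replicate 1, where OPI3 was not above background. A link between the OPI3 signal and the ULI1 level was not tested. With choline the 3 arrays of Δopi3 IRE1 cells were at −5.94, −6.24 and −6.15, a mean of −6.11 ± 0.16, and overlapped the untreated arrays.

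In ΔLD cells the untreated level was −5.997, −6.42 and −6.02, a mean of −6.15 ± 0.24, which overlapped untreated IRE1 cells. With DTT the ΔLD arrays stood at −5.47, −5.58 and −5.42, a mean of −5.49 ± 0.08. They lay above all untreated ΔLD arrays, but far below the IRE1 arrays with the same treatment. On ΔLD arrays labelled Δopi3 the level was −3.94, −4.04 and −4.03, a mean of −4.004 ± 0.05. This was a middle level: every one of these arrays was above every ΔLD array with DTT and below every stressed IRE1 array. With choline the level was −5.98, −6.21 and −6.04, a mean of −6.07 ± 0.12, back among the untreated arrays.

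**Figure D1:**
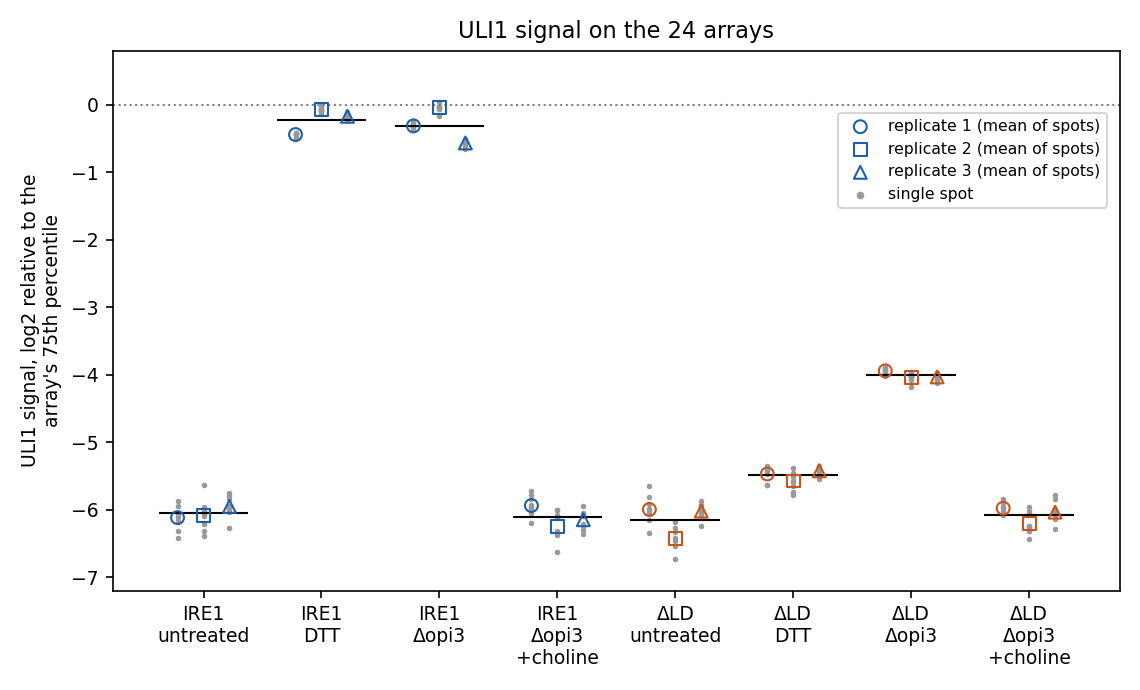
ULI1 signal on each of the 24 arrays (vertical axis, log2 relative to the array's 75th percentile, which is the dotted line at 0) by group (horizontal axis). Open symbols are array means by replicate number, small grey points are the single spots used, and black bars are means of 3 arrays; IRE1 cells with DTT (−0.23) and with the Δopi3 label (−0.31) stand apart from ΔLD cells with the label (−4.004) and with DTT (−5.49), and the other 4 groups lie between −6.15 and −6.05.

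In order of level, the 8 groups thus formed 4 steps. IRE1 cells with DTT and IRE1 cells labelled Δopi3 came first and did not differ beyond their spread. The ΔLD cells labelled Δopi3 came next, at 7.30% of the highest group mean on the linear scale, and the ΔLD cells with DTT after them, at 2.61%. Both of these steps were free of overlap with their neighbours in the order. Such separation is common with 3 arrays a group. Between Δopi3-labelled and DTT arrays of ΔLD cells, 65.9% of all genes had groups without overlap. Between Δopi3-labelled arrays of the strains the share was 23.3%. The last 4 groups, at 1.65% to 1.77% of the highest mean, were untreated and choline-treated cells of both strains, and each overlapped the next.

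As a fold, the ULI1 signal with DTT was 56.5 times that of untreated IRE1 cells, a log2 change of 5.82 (SE 0.13). This was the largest increase of all 6210 genes kept after the filter on dim probes. Among the 6014 genes above background on all 6 arrays the next was YET2, a gene for an ER membrane protein, with 3.85 (SE 0.16). The 3 slides gave 5.68, 6.01 and 5.78 for ULI1. The size of the fold depends on how the low untreated signal is corrected: with normexp background correction the log2 change was 4.98, a fold of 31.5. Scaled to the E1A control probes, the change was 6.70, a fold of 104, and the median of all genes was then 0.96. ULI1 held the first rank with normexp correction. Scaling to the controls shifts all genes of a comparison by the same amount, so it cannot change a rank.

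On arrays labelled Δopi3, ULI1 in IRE1 cells was 53.5 times its untreated level, a log2 change of 5.74 (SE 0.13), with 5.80, 6.03 and 5.39 on the 3 slides. It ranked second of 6210 genes. Above it stood INO1, which encodes the inositol synthesis enzyme, with 6.05 (SE 0.25), and the next below it among genes measured on all arrays was POT1, a peroxisomal thiolase of fatty acid breakdown, with 4.56 (SE 0.35). Without the arrays on which OPI3 was above background, 1 array remains in this group and is assumed to vary like the others; the log2 change was then 5.74 (SE 0.17) and the rank again second. With normexp correction it was 4.90, a fold of 29.8.

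ULI1 differed by little between the stresses in IRE1 cells. The Δopi3 arrays were lower than the DTT arrays by 0.08 on the log2 scale (difference −0.08, SE 0.13), and the arrays overlapped. The sign turned to 0.05 without replicate 3 of the Δopi3-labelled groups. Scaled to E1A controls, the difference was −0.73 beside a median of all genes of −0.70. In ΔLD cells the ULI1 signal on Δopi3 arrays was 2.80 times that with DTT, a log2 difference of 1.49 (SE 0.13), with 1.53, 1.54 and 1.39 on the 3 slides. No test is given for either difference, since the choice of ULI1 used these arrays. Without the arrays with OPI3 above background the ΔLD difference was 1.55, with only replicate 1 left on the Δopi3 side.

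In ΔLD cells ULI1 with DTT was 1.58 times its untreated level, a log2 change of 0.66 (SE 0.13), with 0.53, 0.85 and 0.60 on the 3 slides. This size is common among genes in that comparison: ULI1 ranked 861st of 6210 from the top, next to SCT1 (an acyltransferase of phospholipid synthesis, 0.66) and CPR5 (an ER prolyl isomerase, 0.66), and 71.8% of genes had groups that did not overlap. The value moved to 0.39 with quantile normalization, 0.33 with normexp correction and 1.01 with scaling to the E1A control probes, where the median of all genes was 0.43. On ΔLD arrays labelled Δopi3, ULI1 was 4.42 times its untreated level, a log2 change of 2.14 (SE 0.13). It ranked 80th of 6210 genes, and 50th of the 5940 genes measured on all 6 arrays, between SNO4 (2.17) and ERR2 (2.13). Here 66.4% of genes had groups without overlap. Without the arrays with OPI3 above background only replicate 1 of this group remained, and the log2 change was 2.20. With normexp correction it was 1.58.

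The differences between the strains were the largest of all genes. For DTT, subtracting the log2 change of IRE1 cells from that of ΔLD cells gave −5.16 (SE 0.18), and the 3 slides gave −5.15, −5.16 and −5.18. The next gene measured on all arrays was ATG17, a scaffold protein of autophagy, with −3.09 (SE 0.23). For the Δopi3 label the difference was −3.60 (SE 0.18), with −3.75, −3.65 and −3.40 on the slides. It was −3.53 without the arrays with OPI3 above background, which leaves only replicate 1 with the label in each strain. The next gene there was PHO84, a phosphate transporter, with −2.56 but a standard error of 1.04. Set directly against each other, ΔLD cells with DTT had a ULI1 level lower by 5.26 than IRE1 cells with DTT, a fold of 38.4, and ΔLD cells labelled Δopi3 one lower by 3.70, a fold of 12.96. Both were the lowest of 6210 values. In untreated cells the strains differed by −0.10 (SE 0.13) and the arrays overlapped.

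Because ΔLD cells had a larger ULI1 response to the Δopi3 label than to DTT, the strain difference was smaller for Δopi3 by 1.57 (SE 0.18), the 17th largest positive value of 6210 genes. Measured as the share of the log2 change of IRE1 cells that was also seen in ΔLD cells, ULI1 retained 11.3% with DTT and 37.3% with the Δopi3 label. In IRE1 cells 452 genes, ULI1 included, rose by a factor of 2 or more with DTT; 30 of them retained less than ULI1, and the median was 77.7%. For the Δopi3 label there were 592 such genes, of which 23 retained less, and the median was 76.1%. The DTT share of ULI1 moved to 6.54% with normexp correction, 6.73% with quantile normalization and 15.1% with E1A scaling, and the Δopi3 share to 32.4%, 30.9% and 35.5%. Over these settings 17 of 339 to 73 of 2889 genes retained less than ULI1 with DTT, and 13 of 456 to 62 of 800 with the label. IRE1 cells and ΔLD cells also differed in the IRE1 transcript itself. The IRE1 probe read 2.10 higher in untreated ΔLD cells (SE 0.25, adjusted p 4.16e-05), where 0.0483% of all genes were called higher. Under DTT it read 2.35 higher (adjusted p 7.55e-07; 7.47% of genes), on Δopi3 arrays 2.96 higher (adjusted p 1.38e-07; 6.91%), and on choline arrays 2.23 higher (adjusted p 1.13e-05; 1.64%). The untreated difference was not called without replicate 2 (adjusted p 0.0574). The part of these transcript levels in the ULI1 differences was not tested.

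**Figure D2:**
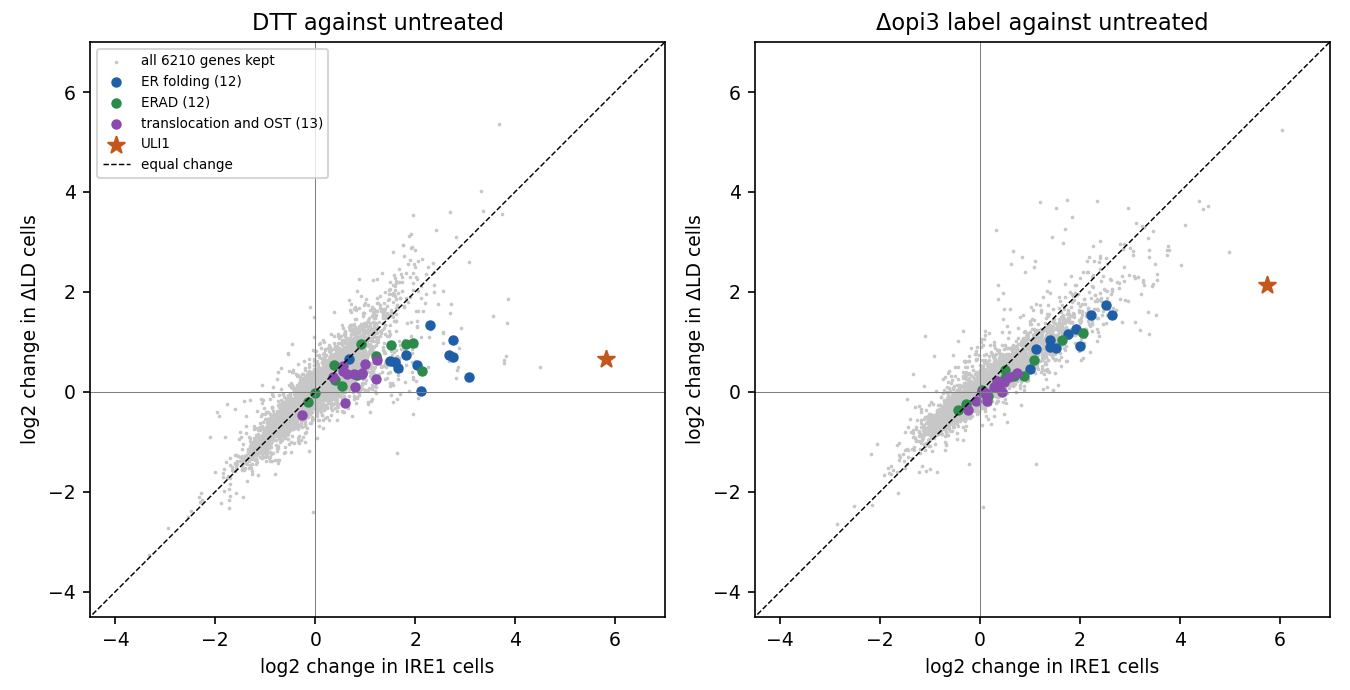
Log2 change in IRE1 cells (horizontal axis) against log2 change in ΔLD cells (vertical axis) for DTT (left) and the Δopi3 label (right), 3 arrays a group. Grey points are the 6210 genes kept (1 point lies outside the axes), coloured points the ER gene lists, the dashed line equal change in both strains; ULI1 (star) lies farthest to the right of that line in both panels, at 5.82 and 0.66 with DTT and at 5.74 and 2.14 with the label.

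On choline arrays of Δopi3 cells the ULI1 level overlapped that of untreated cells. In IRE1 cells it was lower by 5.80 with choline than without (difference −5.80, SE 0.13), second from the bottom of 6210 genes after INO1 (−7.16) and before SHH3 (−4.85). In ΔLD cells the difference was −2.07 (SE 0.13), the 87th lowest value. The difference between the strains was 3.73 (SE 0.18), the highest of 6210 values, with HUG1 next at 1.87. These values use the same Δopi3 arrays as those above with the opposite sign. Another question is whether choline-treated Δopi3 cells differed from untreated cells. The untreated arrays also entered the choice of ULI1, so these p-values are not fully free of it. In IRE1 cells ULI1 differed by −0.06 (SE 0.13, 95% interval −0.33 to 0.21, adjusted p 0.8597 in limma, 2.22% of all genes called). In ΔLD cells it differed by 0.07 (95% interval −0.19 to 0.34, adjusted p 1.00, 0.515% of genes called). Between the strains, with choline, the difference was 0.04 (95% interval −0.23 to 0.30, adjusted p 0.968, 3.14% of genes called). None of these 3 differences was called under any setting tried.

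The genes whose pattern was most like that of ULI1 were taken as the 10 with the highest Pearson correlation over the 24 arrays. The arrays share slides and scaling, and the 6 arrays of stressed IRE1 cells stand far from the other 18, so the correlation is a description only. The 10 genes had r from 0.976 to 0.989, and 128 of 6209 genes reached 0.9. The first, YJL152W, was above background only on the 6 arrays of IRE1 cells with DTT or the Δopi3 label, so its r rests on background signal on the other 18, and it has no entry in the reference gene table. It was followed by DOG1 (r 0.988), a sugar phosphate phosphatase, HEM15 (0.986), the ferrochelatase of heme synthesis, and MCD4 (0.983), an enzyme of GPI anchor synthesis in the ER. DER1 (0.981) and SIL1 (0.979) are ER genes of the lists below: Der1 takes part in export of misfolded proteins from the ER, and Sil1 is the nucleotide exchange factor of the Kar2 chaperone. ATG17 (0.980), the splicing factor gene MUD2 (0.979), GIP1 (0.977), known for its part in sporulation, and YDR320W-B (0.976) completed the set. In the reference gene table MUD2 lies beside LHS1, which encodes an ER chaperone.

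The 9 of these genes that were measured on all arrays all had larger changes in IRE1 than in ΔLD cells. Within ΔLD cells they had larger changes with the Δopi3 label than with DTT, as ULI1 did. The genes were chosen by likeness to ULI1 over these same arrays, so this shared order follows from the choice and is no separate result. In IRE1 cells their changes were smaller than those of ULI1. With DTT in IRE1 cells they ranged from 0.95 for MUD2 to 3.82 for ATG17, against 5.82 for ULI1, and in ΔLD cells from 0.01 for GIP1 to 0.72 for ATG17, against 0.66. With the Δopi3 label ATG17 (3.54 in IRE1 cells and 2.23 in ΔLD cells) came closest to ULI1 (5.74 and 2.14), and in ΔLD cells its value was the higher one. ULI1 retained less of its Δopi3 change in ΔLD cells (37.3%) than 8 of the 9, of which ATG17 retained most (62.9%), while HEM15 retained 33.4%. With DTT the comparison went the other way for 5 of the 9: GIP1 (0.479%), HEM15 (8.40%), DOG1 (9.45%), SIL1 (9.68%) and YDR320W-B (10.3%) retained less than the 11.3% of ULI1. Over the 18 arrays without the stressed IRE1 cells, r was 0.904 (HEM15) to 0.990 (ATG17) for these 9 genes. Within these 18 the ΔLD arrays with the label again stood apart for ULI1 (mean −4.004, next group −5.49). The genes were also chosen by r over arrays that include these 18, so this r is no separate check. By rank correlation the choice was another one: only ATG17 of the 10 was also among the 10 highest by Spearman's rho. The most opposite genes, MRPL17 (r −0.929) and ATP23 (r −0.923), both of mitochondria, moved by less than 0.6 in all 6 effects.

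**Figure D3:**
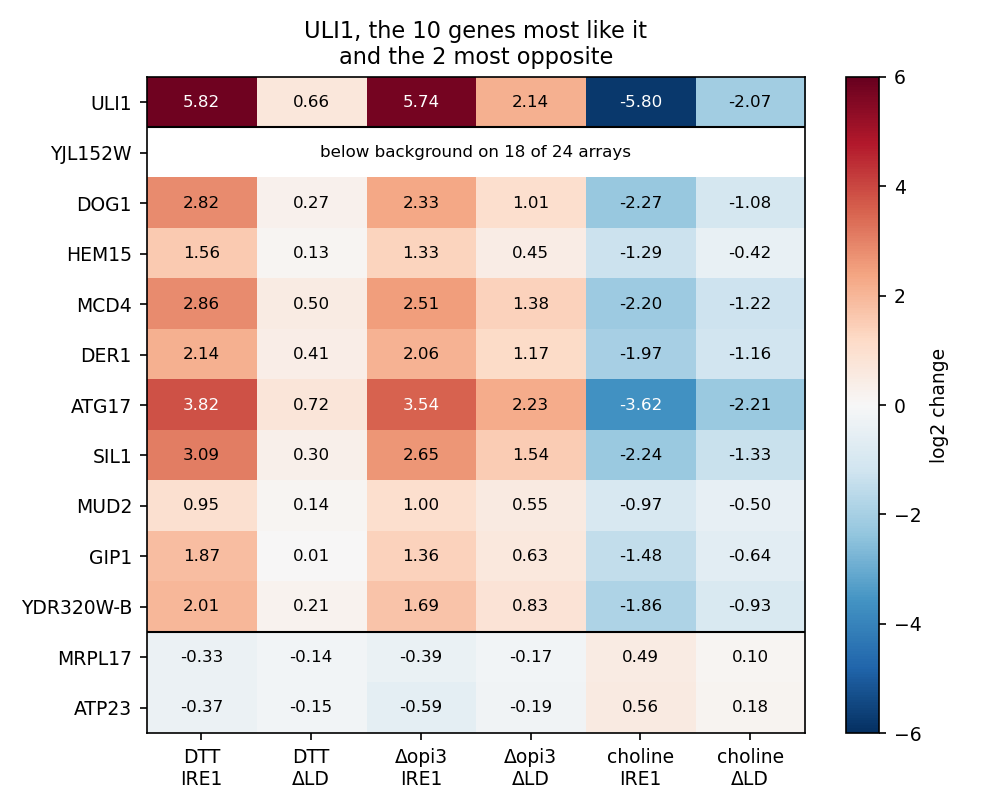
Log2 changes in 6 comparisons (columns: DTT against untreated, Δopi3 label against untreated and choline against no choline, each in both strains) for ULI1, the 10 genes with the highest correlation with it over 24 arrays and the 2 with the lowest. Colour and printed number give the fitted log2 change from 3 arrays a group; no size is given for YJL152W, and ULI1 has the largest value in both stress columns of IRE1 cells.

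ULI1 is part of a pathway whose other genes were counted from 4 lists, chosen with earlier results of these data known. Of the sensor and splicing genes (IRE1, HAC1, TRL1, TPT1 and the Ire1 phosphatase gene PTC2), 1 of 5 rose with DTT in IRE1 cells, which was HAC1 (0.76, SE 0.12, adjusted p 2.03e-05), and 2 fell, while 39.4% of all genes were called higher and 30.1% lower. HAC1 also rose with the Δopi3 label in IRE1 cells (0.80, adjusted p 1.39e-05). Its DTT effect was not called different between the strains (0.06, SE 0.17, adjusted p 0.911), and this sign turned with quantile normalization and with scaling to the controls. The probe does not separate spliced from unspliced HAC1.

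Of 12 ER folding genes, 12 rose with DTT in IRE1 cells (median 2.07, all genes 0.07) and 11 in ΔLD cells (median 0.64; 38.1% of all genes were called higher and 28.3% lower). With the Δopi3 label 11 rose in each strain, with medians of 1.65 and 0.97, where 32.2% and 29.2% of all genes were called higher, and 35.1% and 27.3% lower. The largest change in IRE1 cells was that of SIL1 with DTT (3.09, SE 0.10), which in ΔLD cells was 0.30. For JEM1, a J-domain partner of Kar2, the log2 change was 2.11 in IRE1 cells and 0.0049 in ΔLD cells. Both genes are named for their strain difference, so no p is given. Of 12 genes of ER-associated degradation, 10 rose with DTT in IRE1 cells (median 0.88), and 9 rose and 1 fell in ΔLD cells (median 0.47). With the Δopi3 label 8 rose and 2 fell in IRE1 cells, and 7 rose and 2 fell in ΔLD cells. Of 13 genes of protein translocation into the ER and of the oligosaccharyltransferase, 12 rose and 1 fell with DTT in IRE1 cells (median 0.79), and 10 rose and 2 fell in ΔLD cells (median 0.35). With the label 7 of 13 rose in IRE1 cells, where 32.2% of all genes were called higher. In ΔLD cells 4 of 13 rose, which is near the 29.2% of all genes, and 1 fell. With scaling to the controls no translocation gene was called with the label in ΔLD cells, and 2 of the degradation genes were. No share of all genes called is given for that scaling, so these counts have no background beside them.

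Against these 42 genes ULI1 stood out by its size in IRE1 cells, where none had a larger change in either stress. Among genes measured on all arrays compared, ULI1 ranked 1 of 6014 by size with DTT there and 2 of 5975 with the label. In ΔLD cells with DTT 11 of the 42 had a larger change than ULI1, and with the Δopi3 label none. By size ULI1 ranked 1518 of 5939 genes in ΔLD cells with DTT and 54 of 5940 with the label. Both counts are thus near those of all genes and do not set the listed genes apart. The strain difference of the DTT effect was called lower in ΔLD cells for 11 of 12 folding genes, 7 of 12 degradation genes and 6 of 13 translocation genes, where 6.59% of all genes were. For the Δopi3 label the counts were 5, 1 and 0, where 2.32% of all genes were called lower. Scaled to E1A controls, they were 11, 4 and 5 for DTT and 2, 0 and 0 for the label. The median of all genes was then −0.49 for DTT and −0.22 for the label. The share of all genes called under that scaling is not given, so these counts cannot be set against it. One pathway gene, PTC2, had a difference for DTT that was called higher (0.25), where 1.72% of all genes were, and 4 named genes had one for choline, where 4.78% were. The folding and degradation genes with the largest differences for DTT were SIL1 (−2.79, SE 0.15), JEM1 (−2.11), EUG1 (−2.06) and MPD1 (−1.94), all of the folding list, and DER1 (−1.73). EUG1 and MPD1 belong to the protein disulfide isomerase family. Of the pathway genes that rose by a factor of 2 or more, 18 with DTT retained 0.233% (JEM1) to 61.4% (USA1) of their log2 change in ΔLD cells, and 13 with the label retained 45.8% (EUG1) to 76.3% (ERJ5). ULI1 at 11.3% lay within the first range and at 37.3% below the second.

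**Figure D4:**
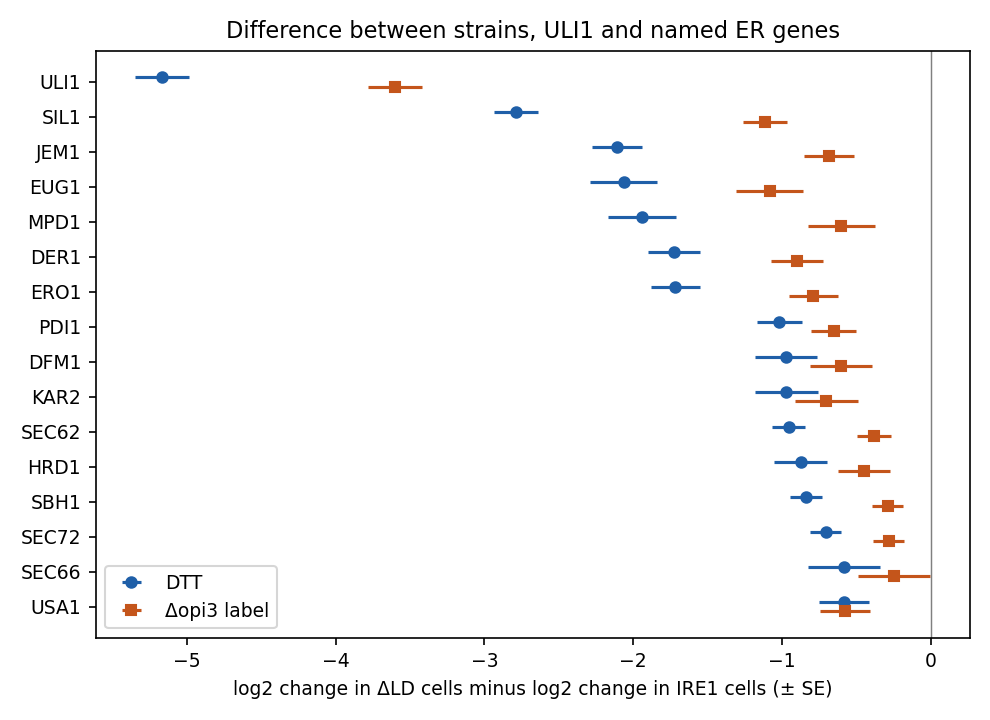
Log2 change in ΔLD cells minus log2 change in IRE1 cells (horizontal axis, points with SE from the limma fit, 3 arrays a group) for ULI1 and 15 genes of the ER lists, for DTT (circles) and the Δopi3 label (squares). ULI1 lies at −5.16 and −3.60, left of all listed genes, of which SIL1 is the next at −2.79 and −1.11.

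The genes beside ULI1 on chromosome VI did not share its pattern. In the reference gene table these are HIS2 and LSB3 on one side and ECO1 and CDC14 on the other. With DTT in IRE1 cells HIS2 (histidine synthesis) changed by 0.12 (SE 0.07, adjusted p 0.133), LSB3 (an actin patch protein) rose by 0.58 (adjusted p 2.21e-06), ECO1 (the cohesin acetyltransferase) rose by 0.59 (adjusted p 1.2e-06), and CDC14 (a cell cycle phosphatase) changed by −0.13 (adjusted p 0.0911). With the Δopi3 label they changed by −0.16, −0.22, 0.05 and −0.42 (adjusted p 0.0427, 0.0150, 0.605 and 2.52e-05). In none of the 4 was the strain difference of either effect called, and the smallest of these adjusted p-values was 0.162, for CDC14 and the label.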

How the data were processed

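Each deposited file gives the intensity of every spot of 1 Cy3-labelled array; per the file headers it was written by Agilent Feature Extraction 10.7.1.1, with background subtracted and spatial trend removed but arrays not scaled to each other. Flags of the software, deposited as other values (0 or 1), marked outlier spots and spots well above background. A deposited table of the authors' ratios was not used. Outlier spots were left out (1.10% to 2.05% of 61657 spots), log2 signals were set relative to the array's 75th percentile (6951 to 15890 units), and spots, then probes of a gene, were averaged. Genes entered the fit if, in 1 or more groups, every array had over 50% of the spots of a probe above background (6210 of 6576 names, 5756 of them in the RefSeq R64 gene table). The array design rests on an older assembly, so no coordinates are given, and no promoter or protein sequence was used here.

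One limma 3.58.1 model (R 4.3.3) of 8 group means on 24 arrays gave 14 comparisons and 4 differences between effects (16 residual degrees of freedom, moderated variances, Benjamini-Hochberg over 6210 genes, two-sided, called under 0.05). It was checked on simulated data. With 3 arrays a group, the smallest exact p is 0.1. The number of arrays limits the precision. Δopi3 against DTT was planned as a test for ULI1, but its p is not given because the choice of the gene used those arrays. The gene, lists and tests were chosen with earlier results of these data known. Named were ULI1, IRE1, HAC1 and OPI3, the 10 most and 2 least correlated genes, genes next in rank, chromosome neighbours, and up to 4 members of each list with the largest strain difference for DTT, with KAR2, PDI1 and ERO1. Alternatives were quantile, E1A-control and normexp settings (normexp on the median signal, chosen after seeing the data), spot medians, no filter, the replicate number as a block, a fit on only those groups compared, and removal of single arrays, replicate numbers or arrays with OPI3 signal.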

Additional observations from a re-analysis of the deposited data

Results flagged for a closer look

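Besides ULI1, whose strain differences are described above without a test, 23 named genes (pathway genes and the neighbours on the chromosome) had a difference of each effect between the strains fitted as an interaction term of the limma model. Up to 4 pathway genes of each list were named because their difference for DTT was large, so those values are a description with no p, and their number says nothing beyond the choice. Over all genes, 6.59% were called lower and 1.72% higher for DTT. Among folding genes it was −2.79 for SIL1, −2.11 for JEM1, −2.06 for EUG1, −1.94 for MPD1, −1.72 for ERO1, −1.02 for PDI1 and −0.97 for KAR2. Among degradation genes it was −1.73 for DER1, −0.97 for DFM1, −0.87 for HRD1 and −0.58 for USA1. Among translocation genes it was −0.95 for SEC62, −0.83 for SBH1, −0.70 for SEC72 and −0.58 for SEC66. PTC2 had the largest positive difference, 0.25, with log2 changes of −0.72 in IRE1 and −0.47 in ΔLD cells. With scaling to the controls the value for PTC2 was −0.28. IRE1 (0.24), ECO1 (0.13), HIS2 (0.09), HAC1 (0.06) and LSB3 (0.04) were also positive, and TPT1 (−0.13) and CDC14 (−0.08) were negative.

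For the Δopi3 label, which shares the untreated arrays with DTT, the difference was called for 7 genes, where 2.32% of all genes were called lower: SIL1 (−1.11), EUG1 (−1.08), DER1 (−0.90), ERO1 (−0.79), JEM1 (−0.68), HAC1 (−0.66) and PDI1 (−0.65), with adjusted p-values from 0.000149 to 0.0337. SIL1, EUG1, DER1 and JEM1 were named for large DTT differences, which use the same untreated arrays. Their p-values are therefore no separate test, and the number called depends on that choice. For choline, where 4.78% of all genes were called higher, it was called for EUG1 (0.95), SIL1 (0.91), DER1 (0.81) and SEC72 (0.44), with adjusted p-values from 0.000495 to 0.0132. SIL1 and DER1 were also chosen by their correlation with ULI1 over all arrays, those with choline included, so their choline values are a description. None of these 7 was called for the label, and none of these 4 for choline, when the whole of replicate 2 was left out (adjusted p 0.0568 to 0.784 and 0.0955 to 0.425). With E1A scaling none of the 4 choline calls remained (adjusted p 0.530 for EUG1, 0.551 for SIL1, 0.902 for DER1 and 1.00 for SEC72). Of the 7 label calls, those of SIL1 and EUG1 remained with E1A scaling, and those of HAC1, JEM1, DER1, PDI1 and ERO1 were lost (adjusted p 0.106 to 0.369). For DTT, where the values are a description, those of PTC2, DFM1, HRD1, USA1, SEC72 and KAR2 fell short of the threshold without replicate 2. This is no test of the other named genes.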

How the results depend on the processing

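ULI1 kept the direction of its 9 values with arrays free of overlap, and of its 4 differences between effects, under every alternative run. In those 9 comparisons 23.3% to 74.3% of all genes had groups without overlap. The sizes moved with background and scaling, and the cause was not tested. With normexp correction the values were 4.98 and 0.33 for DTT in IRE1 and ΔLD cells, 4.90 and 1.58 for the Δopi3 label, −5.07 and −1.60 for choline, −4.84 between strains with DTT and −4.65 for the difference of the DTT effect. With quantile normalization the ΔLD values were 0.39 for DTT, 1.76 for the label and −1.63 for choline. With scaling to the E1A controls they were 6.70 and 1.01 for DTT, −1.90 for choline in ΔLD cells, −5.69 for the difference of the DTT effect, 0.31 between untreated strains, and −0.73 for Δopi3 against DTT in IRE1 cells (median of all genes −0.70). Small values changed sign. Between untreated strains the value was −0.10, 0.063 with quantile normalization, and −0.21 to 0.041 over leave-outs. Choline-treated against untreated IRE1 cells gave 0.14 with quantile normalization, 0.39 with E1A scaling, and −0.18 to 0.0079 over leave-outs of arrays or replicate numbers. In ΔLD cells it gave −0.011 with normexp and −0.064 to 0.15 over leave-outs. Between strains with choline it gave −0.021 with normexp, −0.0013 without replicate 3 of the Δopi3-labelled groups, and −0.030 to 0.12 over leave-outs. Δopi3 against DTT in IRE1 cells gave 0.050 without replicate 3 of the Δopi3-labelled groups and −0.21 to 0.078 over leave-outs. Of the 10 genes most like ULI1, 1 was shared by Spearman's rho, and 6 to 10 without a replicate number (6 without replicate 1).

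Other sign changes were 1 quantile value each for HAC1 (DTT difference, −0.017) and ECO1 (label, −0.30), E1A values for HAC1 (−0.47), PTC2 (−0.28 for DTT and −0.24 for the label), TPT1 (label difference, −0.060), CDC14 (DTT, 0.75), HIS2 (label, 0.067) and LSB3 (label, 0.0064), and −0.030 for PTC2 without arrays with OPI3 signal. Over leave-outs the label difference of PTC2 ran from −0.023 to 0.054, the DTT difference of HAC1 from −0.12 to 0.22, and the label effect of ECO1 from −0.00070 to 0.079. Same-numbered arrays share a slide. Over genes, 63 of 84 same-numbered pairs had correlated deviations over 0.1, and 23 of 24 arrays correlated best with their own number, but the lowest pair was at −0.32, so the numbers were not taken as pairs. The replicate block cannot change the ULI1 values (5.82, 0.66, 5.74 and 2.14 for the stresses), since each slide held 1 array of every group. Only the standard errors and p-values could move, and each call on ULI1 was unchanged. The authors' table was not run as an alternative because the lines used here held no value for ULI1.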

Other observations

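By Spearman's rho over the 24 arrays the genes closest to ULI1 were RAD2 (rho 0.968), a nuclease of nucleotide excision repair, DAN4 (0.965), a cell wall mannoprotein, ATG17 (0.965), RRI2 (0.962) and PAU11 (0.957). RAD2 changed by 1.01 with DTT in IRE1 cells and 0.78 in ΔLD cells, and by 1.11 and 0.79 with the Δopi3 label, so its values in the strains were much closer to each other than those of ULI1. DAN4 changed by 2.01 and 0.62 with DTT and by 2.16 and 1.42 with the label. They were chosen by likeness to ULI1, so no test is given.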
